A study of Sus scrofa with 12 samples.

Results

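Genes of ferritin and cellular iron handling were followed during the endothelial induction of porcine iPS cells. The list held 9 genes, taken by name and not by any measured value, and 6 of them were found by their Ensembl pig gene symbol among the 19681 genes with a value. These were FTL, NCOA4, TFRC, SLC40A1, IREB2 and ACO1. For FTH1 (ferritin heavy chain) no identifier was found under its symbol. The identifiers of HMOX1 (heme oxygenase) and SLC11A2 (a divalent metal transporter) were not among the genes with a value. These 3 genes are not analysed here. RNA sequencing covered 12 libraries in 4 groups, with 3 biological replicates (A, B and C) per group. IEC2 were iPS cells after 2 days of induction, in a medium with the GSK3 inhibitor CHIR99021. IEC4 were cells on day 4, after a further step with BMP4, FGF2 and VEGF. IEC12 were cells on day 12, kept in EGM-2 medium with VEGF after day 4, and were not sorted for CD31. AOC is an established porcine endothelial cell line, so that its 3 libraries come from a single line. Values are FPKM, which divide the fragments of a gene by its transcript length and by the fragments of the library, and thus allow levels to be compared between genes of different length.

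Iron enters most cells as iron-loaded transferrin, which is taken up by the transferrin receptor encoded by TFRC. Iron that is not used is stored in ferritin, a shell of heavy and light chains, and leaves the cell only through ferroportin, the product of SLC40A1. The iron regulatory proteins encoded by ACO1 and IREB2 bind stem-loops of these messenger RNAs when iron is scarce, which protects TFRC mRNA from decay and blocks the translation of ferritin and ferroportin mRNA. NCOA4 is the receptor that carries ferritin to the lysosome, where its iron is released. Endothelial cells take up iron from the blood and pass part of it on through ferroportin.

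By RefSeq annotation of Sscrofa11.1, the assembly that is also called susScr11, FTL (ENSSSCG00000003153) lies at chr6:54231121-54232756 and NCOA4 (ENSSSCG00000010399) at chr14:90505614-90531302. TFRC (ENSSSCG00000011848) lies at chr13:133976765-133997554 and SLC40A1 (ENSSSCG00000027157) at chr15:94140635-94161793. IREB2 (ENSSSCG00000001756) lies at chr7:47481539-47529199 and ACO1 (ENSSSCG00000023807) at chr10:33937833-34001895. These spans cover the whole gene, and each value refers to the gene as a whole and not to an exon or an isoform.

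The labels describe the IEC libraries as induced endothelial cells, but most of their endothelial marker transcripts were absent or low. Of 12 endothelial markers, 9 were found. CDH5 was listed at 0 in all 9 IEC libraries, against 103 to 137 FPKM in AOC, and PECAM1 (CD31) was at 0.0197 to 0.554 FPKM in IEC and 91.7 to 131 in AOC. KDR, a VEGF receptor that early mesoderm also carries, was at 2.42 to 3.99 FPKM in IEC2, above the 1.31 to 1.46 of AOC, and at no more than 0.302 in IEC4 and IEC12. The 9 markers summed to 3.27 to 5.70 FPKM in IEC2, 1.74 to 2.16 in IEC4, 0.415 to 0.559 in IEC12 and 294 to 419 in AOC. The study itself reported a minority of CD31-positive cells on day 12 by flow cytometry, which measures protein and not RNA. Why the RNA values of IEC12 differ from that result was not tested. Comparisons of AOC with IEC12 are therefore comparisons of an endothelial line with bulk cultures in which the RNA of these markers was near 0, and they are named by group only. Between 8357 and 10467 genes reached 1 FPKM in a library, and the number of reads behind the values is unknown. The share of FPKM in mitochondrial genes was 7.77 to 15.01% in IEC12 and 1.95 to 7.10% in the other groups. In such bulk samples, fewer cells of a type and less RNA per cell cannot be told apart.

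**Figure D1:**
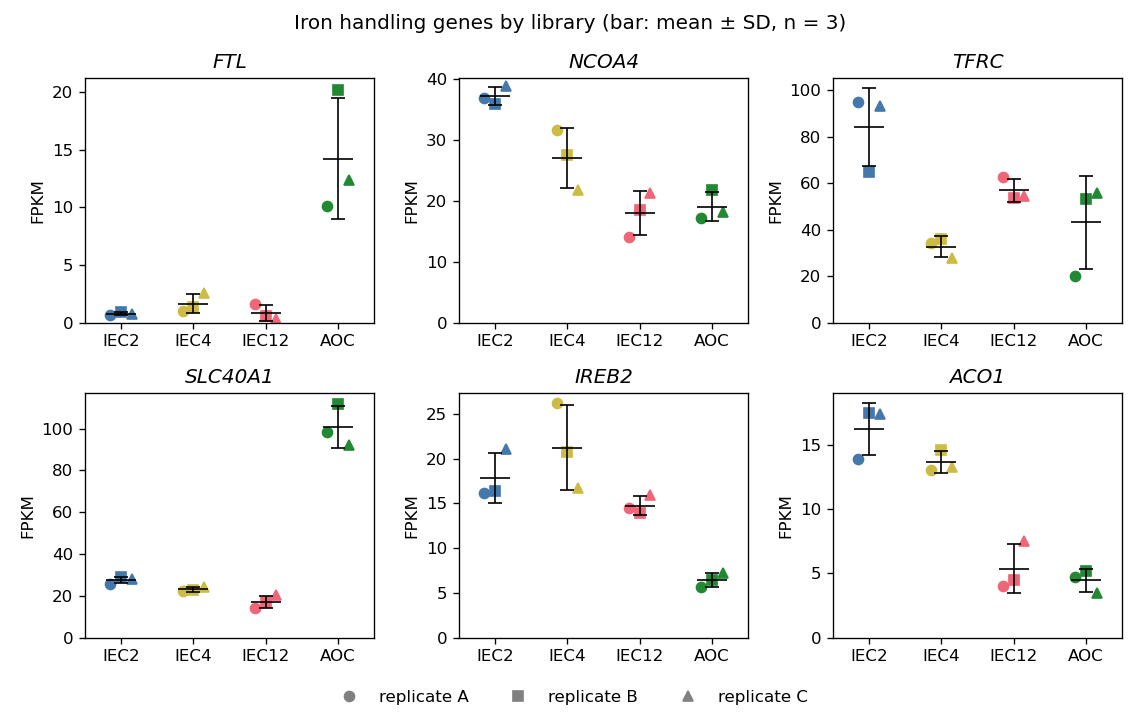
FPKM of the 6 genes in each of the 12 libraries, with the groups on the x axis, 1 symbol per replicate letter and bars for the mean ± SD (n = 3). FTL and SLC40A1 stood above all other libraries in AOC, TFRC was lowest in IEC4 except for AOC replicate A, and ACO1 was low in both IEC12 and AOC.

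FTL encodes the ferritin light chain, the subunit that helps to build the iron core. It was at 10.1, 20.2 and 12.3 FPKM in AOC replicates A, B and C. In the other groups it stayed low, at 0.660, 0.901 and 0.762 FPKM in IEC2, 1.03, 1.33 and 2.56 in IEC4, and 1.58, 0.563 and 0.312 in IEC12. All 3 AOC libraries were thus above all 9 IEC libraries, while IEC12 overlapped with IEC4 and with IEC2, its neighbors in the order of the means. The mean in AOC was 14.2 ± 5.28 FPKM (SD, n = 3), 8.66 times that of IEC4, the group next to it. On the log2(FPKM + 1) scale, which understates changes of low values, FTL was higher in AOC than in IEC12 by 3.07 (standard error 0.304, limma, adjusted p = 4.18e-06). This passed the limits of the study for a differential gene (p and adjusted p under 0.001, with a log2 change of more than 3 in size). The study applied those limits to iPS cells against AOC and to its own fold changes, so they serve here only as a stricter threshold. The change of FTL dropped below the limit of 3 without AOC replicate B (2.80), IEC12 replicate B (2.99) or IEC12 replicate C (2.87) and with equal totals (2.98), and it was 4.15 with a pseudocount of 0.1.

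Between the stages of induction, FTL passed no test. For IEC4 against IEC2 the log2 fold change was 0.53 (95% interval -0.11 to 1.17, adjusted p = 0.170), and from IEC4 to IEC12 it was -0.56 (-1.19 to 0.08, adjusted p = 0.139). Without IEC12 replicate A, which had the highest value of its group, the latter was -0.84 with an adjusted p of 0.0310. FTL is known as an abundant transcript of most mammalian cells, and in IEC2 only 38.0% of the 15806 genes above 0 had a lower mean. Ferritin genes have related copies in mammalian genomes, and how reads shared by such copies were assigned is not given in the sources used here. Whether the identifier gathers all reads of the gene was not tested, so the level of FTL is uncertain. The study lists FTL among its quantitative PCR primers and used such PCR to check its sequencing, but those results were not compared here.

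NCOA4, the ferritin receptor for lysosomal breakdown, was highest at the start of induction. It was at 36.8, 35.9 and 38.8 FPKM in IEC2, 31.6, 27.5 and 21.8 in IEC4, 14.0, 18.5 and 21.2 in IEC12, and 17.1, 21.8 and 18.2 in AOC. IEC2 was above every other library, and the ranges of IEC4 and IEC12 did not overlap. From IEC2 to IEC12, NCOA4 fell by 1.03 on the log2 scale (standard error 0.182, limma, adjusted p = 0.00156), and it passed in all 15 alternatives of that comparison.

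Neither single step of NCOA4 was as firm. Between IEC2 and IEC4 the log2 fold change was -0.47 (adjusted p = 0.0704) and did not pass, except without IEC12 replicate A (adjusted p = 0.0296), with median-of-ratios scaling and with only the groups compared. From IEC4 to IEC12 it was -0.57 (adjusted p = 0.0301). This call passed in 8 of 15 alternatives and was lost without IEC4 replicate A (0.106), IEC4 replicate B (0.0848), IEC12 replicate A (0.0788) or IEC12 replicate B (0.0651), each an adjusted p, with median-of-ratios scaling (0.152) and with only the groups compared (0.0639). AOC and IEC12 overlapped, with a log2 difference of 0.09 (95% interval -0.28 to 0.47).

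TFRC, which encodes the transferrin receptor, changed in both directions during induction. It was at 94.9, 64.8 and 93.1 FPKM in IEC2, 34.4, 36.1 and 27.7 in IEC4, and 62.7, 53.5 and 54.7 in IEC12. The 3 stages did not overlap. From IEC2 to IEC4, TFRC fell by 1.33 on the log2 scale (standard error 0.174, limma, adjusted p = 0.000374). From IEC4 to IEC12 it rose by 0.79 (standard error 0.174, adjusted p = 0.00574). Both calls passed in all 15 alternatives.

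On day 12 TFRC was still below its level on day 2. IEC12 was lower than IEC2 by a log2 difference of -0.54 (adjusted p = 0.0307). This call depended on single libraries and was lost without IEC2 replicate A (adjusted p = 0.0979), IEC2 replicate C (0.105), IEC12 replicate B (0.0997) or IEC12 replicate C (0.0681), with median-of-ratios scaling (0.0641) and without a filter (0.0530). In AOC, TFRC was at 20.2, 53.3 and 55.9 FPKM, so that replicate A lay below all IEC4 libraries and the other replicates lay among or near those of IEC12. The difference between AOC and IEC12 did not pass the test (log2 difference -0.52, 95% interval -1.21 to 0.17, adjusted p = 0.175). Without AOC replicate A this difference was -0.06.

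SLC40A1, the gene for the iron exporter ferroportin, was the most abundant of the 6 genes in AOC. Its level there was 98.4, 111.9 and 92.2 FPKM in replicates A, B and C, higher than 95.2% of the 15167 genes above 0 in AOC. During induction it was at 25.8, 28.9 and 28.0 FPKM in IEC2, 22.2, 22.7 and 24.3 in IEC4, and 14.1, 16.9 and 20.2 in IEC12. No neighboring groups in this order overlapped. SLC40A1 was higher in AOC than in IEC12 by 2.51 on the log2 scale (standard error 0.135, limma, adjusted p = 2.32e-08), with 2.38 to 2.78 over 18 alternatives.

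Within the induction, SLC40A1 went down in small steps. From IEC2 to IEC12 it fell by 0.68 (standard error 0.149, adjusted p = 0.00525), and all 15 alternatives passed. The step from IEC2 to IEC4 was -0.25 (adjusted p = 0.219), or -0.50 with an adjusted p of 0.0163 after median-of-ratios scaling. From IEC4 to IEC12 it was -0.43 (adjusted p = 0.0402). That call passed in 6 of 15 alternatives, and with 1 library left out it was lost without IEC2 replicate B or C, any replicate of IEC4, or IEC12 replicate A or B, with adjusted p from 0.0562 to 0.105.

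IREB2 encodes iron regulatory protein 2, whose amount is controlled by breakdown of the protein when iron is plentiful. It was at 16.1, 16.3 and 21.0 FPKM in IEC2, 26.3, 20.8 and 16.7 in IEC4, 14.5, 13.9 and 15.9 in IEC12, and 5.67, 6.48 and 7.21 in AOC. AOC was below every IEC library. IREB2 was lower in AOC than in IEC12 by a log2 difference of -1.08 (standard error 0.172, limma, adjusted p = 0.000193), and this held in 18 of 18 alternatives. Between stages it passed no test. The largest step was from IEC4 to IEC12, at -0.48 (adjusted p = 0.0580), which passed with equal totals (0.0302) and without IEC4 replicate C (0.0235).

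ACO1 encodes iron regulatory protein 1, which serves as the cytosolic aconitase when it carries an iron-sulfur cluster. It was at 13.9, 17.4 and 17.4 FPKM in IEC2 and 13.0, 14.6 and 13.3 in IEC4. In IEC12 it was at 4.02, 4.47 and 7.52 FPKM, and in AOC at 4.72, 5.18 and 3.48. Libraries thus fell into a high pair of groups and a low pair, and within each pair the groups overlapped. ACO1 fell by 1.25 from IEC4 to IEC12 (standard error 0.21, limma, adjusted p = 0.00144) and by 1.48 from IEC2 to IEC12 (adjusted p = 0.000455), in all 15 alternatives of each. From IEC2 to IEC4 the change was -0.23 (95% interval -0.70 to 0.24), and between AOC and IEC12 it was -0.19 (-0.64 to 0.26), or 0.04 after median-of-ratios scaling.

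**Figure D2:**
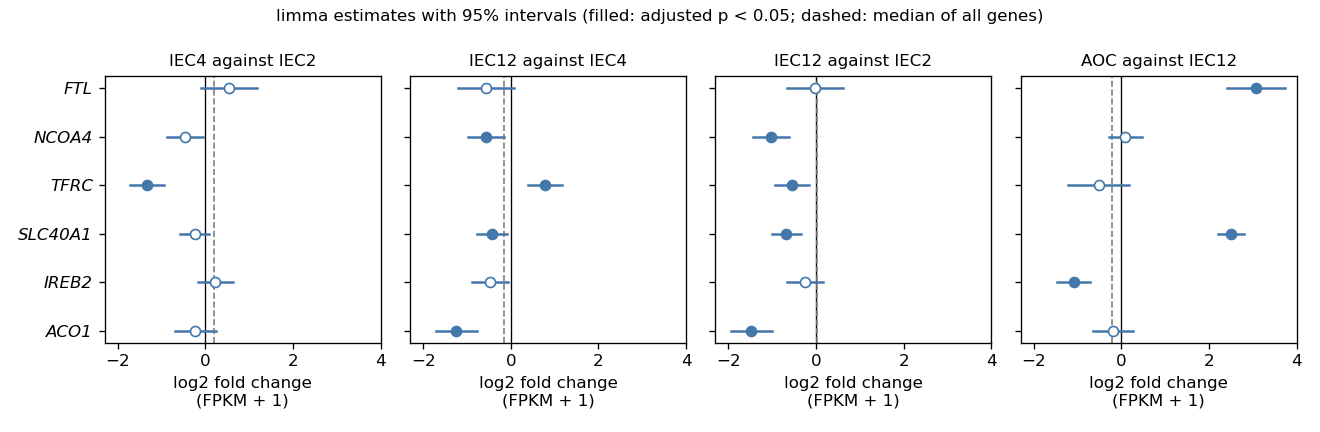
Log2 fold change of each gene on the log2(FPKM + 1) scale (x axis) in the 4 comparisons, with 95% intervals from limma, filled points for adjusted p < 0.05 and a dashed line at the median of all genes tested. TFRC fell from IEC2 to IEC4 and rose from IEC4 to IEC12, and FTL and SLC40A1 had the largest differences, at 3.07 and 2.51 in AOC against IEC12.

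Set against all genes, the counts were as follows, where the stage comparisons share libraries with each other and with the comparison of AOC. In IEC4 against IEC2, 0 of the 6 genes were higher and 1 (TFRC) was lower at an adjusted p under 0.05, where 24.8% of 10542 genes were higher and 12.5% lower. From IEC4 to IEC12, 1 gene was higher (TFRC) and 3 were lower (NCOA4, SLC40A1 and ACO1), against 17.3% higher and 26.9% lower. From IEC2 to IEC12, 0 were higher and 4 were lower (NCOA4, TFRC, SLC40A1 and ACO1), against 24.2% and 19.3% of all genes. In AOC against IEC12, 2 were higher (FTL and SLC40A1) and 1 was lower (IREB2), against 22.4% and 36.2% of 11053 genes. The limits of the study were passed by 0 of the 6 genes in the stage comparisons, where 1.18%, 0.939% and 1.22% of all genes passed, in the order above, and by FTL in AOC against IEC12, where 4.41% passed.

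Those counts rest on few genes and on the libraries used. For IEC4 against IEC2 the count was 2 without IEC12 replicate A, and from IEC4 to IEC12 it was 2 without IEC4 replicate A, IEC4 replicate B or IEC12 replicate B. The median log2 fold change of all genes was 0.20, -0.15, 0.03 and -0.21 in the 4 comparisons in the order above, and median-of-ratios scaling moved it to -0.03, 0.06, 0.01 and -0.01. Relative to the unscaled medians, TFRC changed by -1.52 and then 0.93 over the 2 steps of induction, ACO1 by -1.10 from IEC4 to IEC12, NCOA4 by -1.06 from IEC2 to IEC12, and FTL and SLC40A1 by 3.29 and 2.72 in AOC against IEC12.

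Ratios of 2 genes within a library do not depend on scaling between libraries. They were chosen after the values were seen and are given without a test. TFRC was at 3.68, 2.24 and 3.33 times the FPKM of SLC40A1 in IEC2, 1.55, 1.59 and 1.14 times in IEC4, and 4.45, 3.17 and 2.71 times in IEC12. In AOC this ratio of the uptake to the export gene was 0.206, 0.476 and 0.606. AOC was the only group in which SLC40A1 exceeded TFRC, in 3 of 3 libraries, and IEC4 lay between AOC and both other stages without overlap. For the iron regulatory proteins, IREB2 was at 1.10 ± 0.146 times the FPKM of ACO1 in IEC2 (SD, n = 3), 1.57 ± 0.399 times in IEC4, 2.94 ± 0.758 times in IEC12 and 1.51 ± 0.489 times in AOC. The IEC12 libraries, at 3.598, 3.11 and 2.11, were above all others, the nearest being AOC replicate C at 2.07.

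**Figure D3:**
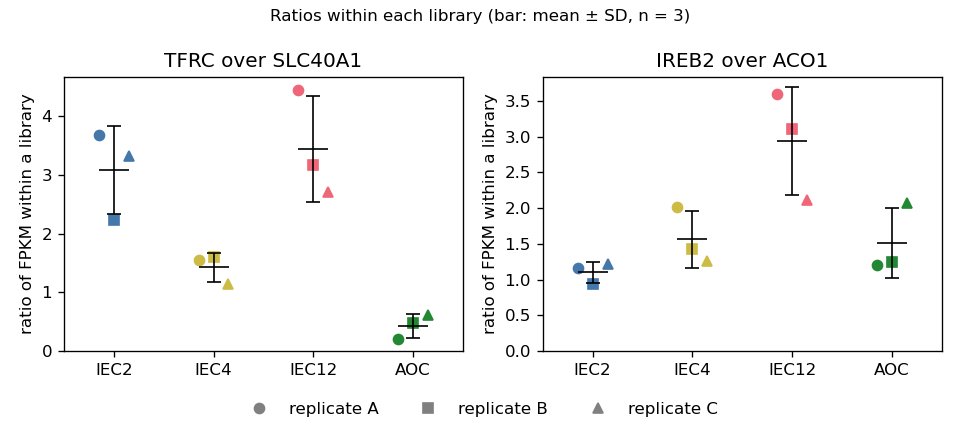
Ratio of the FPKM of TFRC to SLC40A1 (left) and of IREB2 to ACO1 (right) in each library, by group, with 1 symbol per replicate letter and bars for the mean ± SD (n = 3). The left ratio was below 1 in the 3 AOC libraries alone, and the right ratio was highest in IEC12.

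A wider list of 65 genes of iron uptake, storage, export, heme and mitochondrial iron was examined, the 9 genes above included. Of these, 54 were found and 40 were expressed enough to be tested among the IEC libraries. From IEC2 to IEC4, 15 were higher and 4 lower, with a median log2 fold change of 0.32 (0.20 for all genes, of which 24.8% were higher and 12.5% lower). The split was 11 and 7 after median-of-ratios scaling, and the total of 19 was 11 without IEC4 replicate A and 12 without IEC4 replicate B. Without either of these libraries, 37 genes were tested instead of 40. In IEC12, 4 were higher and 14 lower than in IEC4, with a median of -0.44 (-0.15 for all genes, of which 17.3% were higher and 26.9% lower). The total of 18 was 10 without IEC4 replicate A or B, again with 37 genes tested. From IEC2 to IEC12, 8 were higher and 9 lower (3 and 11 with equal totals), against 24.2% and 19.3% of all genes, and the total of 17 was 10 without IEC2 replicate C and 9 without IEC12 replicate B. Between AOC and IEC12, 11 of 42 were higher and 13 lower, or 15 and 11 after median-of-ratios scaling, where 22.4% of all genes were higher and 36.2% lower. STEAP2 (4.76 to 7.15 FPKM in AOC) and BMP6 (2.29 to 2.86), among the 11 higher, reached 1 FPKM in AOC alone. Both passed the filter only through AOC, so no conclusion is drawn from their calls. The counts for AOC against IEC12 were thus near the shares over all genes. FTMT, the mitochondrial ferritin, was listed at 0 in all 12 libraries.

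Heme genes gave 10 of these 19 calls between IEC2 and IEC4 and 7 of the 18 calls between IEC4 and IEC12. Of 14 tested, 9 were higher and 1 lower in IEC4 than in IEC2 (7 and 1 after either scaling of the libraries), and in IEC12 none was higher than in IEC4 and 7 were lower. FLVCR2, counted among those 9 and those 7, reached 1 FPKM only in IEC4 (2.98, 2.09 and 5.05). It passed the filter through that group alone, so no conclusion is drawn from its 2 calls. Over all genes, 24.8% were higher and 12.5% lower in the first comparison, and 17.3% and 26.9% in the second. The first total of 10 was 6 without IEC2 replicate A or IEC4 replicate A, and the second was 4 without IEC4 replicate B. In the fits without a library of IEC4, 13 heme genes were tested instead of 14. BLVRB, which encodes biliverdin reductase B, was the gene of the wider list past the limits of the study between stages. Its FPKM was 52.3, 56.3 and 47.8 in IEC2, 395, 438 and 464 in IEC4, 63.7, 103 and 93.1 in IEC12, and 142, 140 and 144 in AOC. It rose by 3.03 on the log2 scale from IEC2 to IEC4 (standard error 0.175, limma, adjusted p = 3.95e-06) and fell by 2.33 from IEC4 to IEC12 (adjusted p = 2.28e-05). ALAS1, the first enzyme of heme synthesis, was named after its values were seen and had a mean of 5.58, 20.1 and 5.005 FPKM in IEC2, IEC4 and IEC12. It rose by 1.68 (adjusted p = 0.00117) and then fell by 1.89 (adjusted p = 0.000615).

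The genes of the following groups were also named after their values were seen. Among 6 tested uptake genes, TFRC, SLC39A14 and CYBRD1 were higher in IEC12 than in IEC4, and LCN2 was lower. LCN2 reached 1 FPKM only in IEC4 (1.72, 3.25 and 3.30). It thus passed the filter through that group alone, and no conclusion is drawn from its call. Over all genes, 17.3% were higher and 26.9% lower. SLC39A14, a transporter of iron that is not bound to transferrin, rose from 9.47 ± 2.01 FPKM (SD, n = 3) to 15.8 ± 2.51 (log2 fold change 0.69, limma, adjusted p = 0.0191) and was at 2.07 ± 0.359 in AOC. CYBRD1, a ferric reductase, fell from 10.1 ± 3.14 FPKM in IEC2 to 5.89 ± 1.32 in IEC4 and rose to 12.3 ± 1.20 in IEC12. Its difference between IEC12 and IEC2 did not pass the test (adjusted p = 0.327, limma). In AOC, CYBRD1 was at 22.5 ± 2.94. Of 10 mitochondrial genes tested, 2 were higher and 1 lower in IEC4 than in IEC2, against 24.8% and 12.5% of all genes. From IEC4 to IEC12, 1 was higher and 0 lower, against 17.3% and 26.9%. The gene higher in IEC12 was GLRX5, which takes part in iron-sulfur cluster assembly. GLRX5 fell from 11.1 ± 2.35 FPKM in IEC2 to 5.62 ± 1.38 in IEC4 and rose to 29.9 ± 4.35 in IEC12 (log2 fold change 2.24, limma, adjusted p = 7.69e-05). The export group of the list held 3 tested genes, SLC40A1, CP and SLC11A1, of which only SLC40A1 encodes the iron exporter itself. All 3 were lower in IEC12 than in IEC4, as were 26.9% of all genes. Among the IEC libraries, SLC11A1 reached 1 FPKM only in IEC4 (2.53, 2.71 and 1.88). It thus passed the filter through that group alone, and no conclusion is drawn from its call. The call of SLC40A1 passed in only 6 of 15 alternatives. CP, the ferroxidase ceruloplasmin, was at 5.12, 8.12 and 6.51 FPKM in IEC4 and 0.942 ± 0.179 in IEC12, and at 0.0128 ± 0.00857 in AOC, where SLC40A1 was highest.

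**Figure D4:**
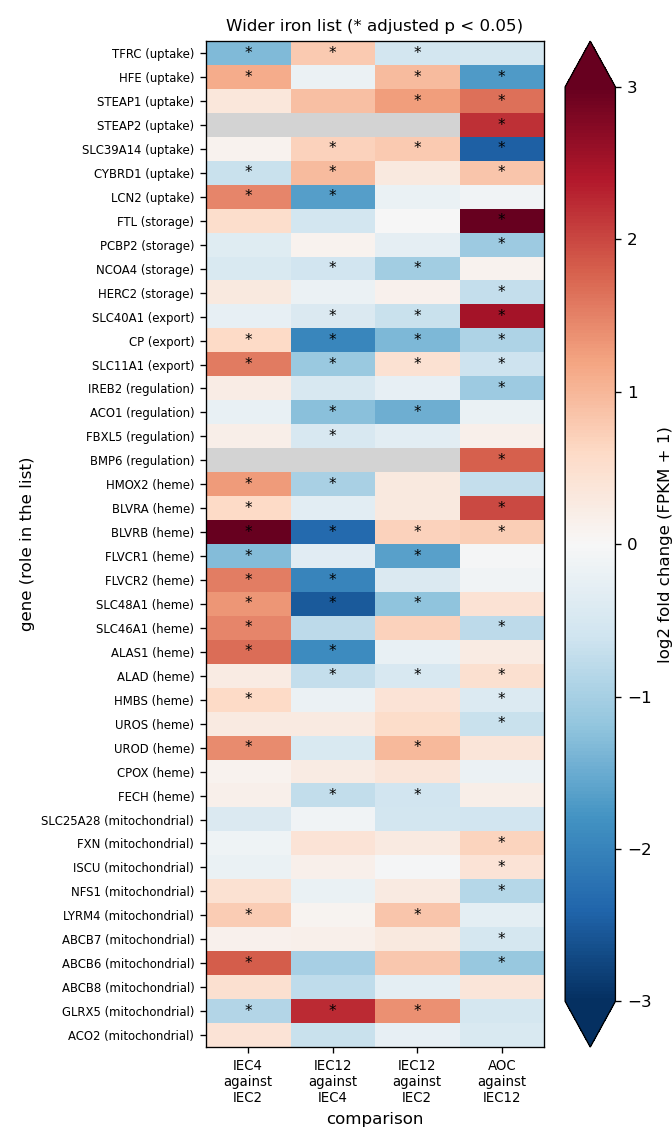
Log2 fold changes on the log2(FPKM + 1) scale of the 42 genes of the wider iron list that were tested, in 4 comparisons, with asterisks for adjusted p < 0.05 and grey for 2 genes not tested among the IEC stages. Heme genes such as BLVRB and ALAS1 were higher in IEC4 than in IEC2 and lower in IEC12 than in IEC4.

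NRF2, encoded by NFE2L2, is a transcription factor whose known targets include ferritin, ferroportin and BLVRB beside enzymes against oxidative stress. A list of 17 NRF2 regulators and other targets held 14 tested genes. In IEC12 against IEC4, 13 were lower and 0 higher (median -1.56, against -0.15 for all genes, of which 26.9% were lower and 17.3% higher). Those lower were 9 of 10 targets and 4 of 4 regulators, so the count is not a measure of NRF2 activity. Over the whole list, the number lower was 11 after median-of-ratios scaling, 14 with equal totals and 13 to 14 with a library left out, with 0 higher in each. For IEC4 against IEC2, 6 were higher and 2 lower (6 and 0 with a pseudocount of 0.1, and 4 and 2 when scaled by median of ratios, where 24.8% of all genes were higher and 12.5% lower), a total that dropped to 3 without IEC4 replicate A or B and to 5 without any replicate of IEC2 or without IEC4 replicate C. The quinone reductase gene NQO1 fell by 3.40 from IEC4 to IEC12 (770 ± 56.9 to 73.3 ± 16.6 FPKM, adjusted p = 2.46e-05, limma). SLC7A11, the cystine transporter gene, fell by 3.73 (34.2 ± 8.69 to 1.63 ± 0.526 FPKM, adjusted p = 1.56e-05), and OSGIN1 fell by 4.54 (33.6 ± 1.51 to 0.533 ± 0.492 FPKM, adjusted p = 3.13e-05). In IEC12 against IEC2, 1 gene of the list was higher and 9 were lower, against 24.2% and 19.3% of all genes. In AOC against IEC12, 5 were higher and 4 lower, or 8 and 2 after median-of-ratios scaling, against 22.4% and 36.2% of all genes. SRXN1, which encodes sulfiredoxin, fell by 3.07 from IEC2 to IEC12 (70.8 ± 31.8 to 7.18 ± 2.55 FPKM, adjusted p = 0.000156). From IEC4 to IEC12, SLC40A1 was lower by 0.43 on this scale, a call that passed in 6 of 15 alternatives. FTL was lower by 0.56 without passing the test (adjusted p = 0.139, limma). A part of NRF2 in these changes was not tested.

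Genes with a pattern like FTL and TFRC were sought by Pearson's r of log2(FPKM + 1) over the 12 libraries, among 11053 genes. The libraries fall into 4 groups, so r mainly reflects the group means. For FTL the closest were MGST1 (r = 0.987), DOCK4 (0.983) and ITGB5 (0.980). Their mean FPKM was 16.2, 4.46 and 5.85 in AOC and below 1 in each IEC stage. For TFRC the closest were CLU (r = 0.895), LNPK (0.891) and ATAD2 (0.886). CLU had means of 390, 142, 239 and 169 FPKM in IEC2, IEC4, IEC12 and AOC.

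Markers of other cells known for high iron turnover were measured beside these results. Of 6 macrophage markers, 5 were found, and they summed to 8.36 to 8.92 FPKM in AOC, 3.39 to 5.20 in IEC12, 5.10 to 9.02 in IEC4 and 6.23 to 9.67 in IEC2. PTPRC and CSF1R were at 0 in all 3 AOC libraries, while PTPRC was at 1.16 to 1.64 in IEC12 and 2.14 to 3.49 in IEC4. CSF1R reached no more than 0.0147 FPKM in any IEC library. CD68 and CD14, named after their values were seen, had their highest means in AOC, at 1.99 and 1.36 FPKM. Their means were 0.722 and 0.0192 in IEC2, 1.31 and 1.11 in IEC4, and 0.679 and 0.159 in IEC12. For both genes the ranges of IEC4 and AOC overlapped. In IEC4 replicate C, CD68 was at 2.41 FPKM (1.49 to 2.59 in AOC) and CD14 at 2.79 (1.14 to 1.55 in AOC). SPI1, the macrophage marker with the highest mean in AOC, was at 5.21 FPKM there and 6.87 in IEC2. Of 6 hepatic markers, 4 were found. They summed to 24.8 to 38.9 FPKM in AOC, 0.0915 to 0.227 in IEC12, 1.40 to 2.75 in IEC4 and 0.0524 to 0.490 in IEC2, of which APOA1 gave a mean of 29.8 in AOC, while ALB was at 0 there and TF reached no more than 0.0177. Erythroid markers, 5 of 6 found, summed to 0.206 to 0.506 in AOC and 0.137 to 0.660 in IEC12. The hepatic sum, carried by APOA1, was higher in AOC than in every IEC group, as FTL and SLC40A1 were. The macrophage sum was higher in AOC than in IEC12, but that of AOC lay within the ranges of IEC2 and of IEC4. Their part in those results was not tested.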

How the data were processed

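Per the labels, cDNA was amplified by Smart-Seq2 and libraries were made with a SMARTER kit. Reads were analysed in Galaxy by the authors, and the submitters' processing notes name Bowtie2 (2.2.3), TopHat2 (2.0.12), Cufflinks (2.2.1) and susScr11. Each deposited table gives a single FPKM per gene. The annotation, the use of strand and the treatment of reads mapping to several places are not given in the sources used here. The number of reads is unknown, so no counting interval is given.

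Symbols came from a table that held 13998 of the 19681 identifiers. Tests used limma (3.58.1, R 4.3.3; lmFit, contrasts.fit, eBayes with trend) on log2(FPKM + 1), for genes that reached 1 FPKM in 3 or more libraries of a fit. Stages were compared in the 9 IEC libraries and AOC with IEC12 in all 12, with Benjamini-Hochberg adjustment over all genes tested. P-values measure the spread between 3 libraries per group. Genes and lists were chosen with earlier results of these data known. Named genes are the 9 of the list, genes of the iron and NRF2 lists past the limits of the study, the markers with the highest or lowest mean, and the 3 genes most like FTL and TFRC. Others are marked. Planned ratios with FTH1, and the genes most like FTH1 and HMOX1, were not computed, because no values were found for FTH1 and HMOX1. Values were tabulated in pandas (2.3.3) and NumPy (2.4.6) under Python (3.11.15), and matplotlib (3.10.9) made the figures.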

Additional observations from a re-analysis of the deposited data

How the results depend on the processing

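The alternatives were a pseudocount of 0.1, no filter, 2 scalings of the libraries, the replicate block, a fit restricted to the compared groups and each library of the fit left out. Those for heme and NRF2 genes were added after seeing the data. For the number of the 6 genes past the test, IEC4 against IEC2 gave 1, and 3 with median-of-ratios scaling, 2 with only the groups compared and 1 to 2 with a library left out. IEC12 against IEC4 gave 4, and 2 with median-of-ratios scaling, 2 with only the groups compared and 2 to 4 with a library left out. The wider iron list, with a library left out, gave 11 to 22 (19 with all libraries), 10 to 22 (18) and 9 to 19 (17) for IEC4 against IEC2, IEC12 against IEC4 and IEC12 against IEC2. In IEC4 against IEC2 and IEC12 against IEC4, fits without a library of IEC4 tested 37 of these genes instead of 40. For the changes above, the cause was not tested. Single changes turned direction in 8 values, for 4 results, none of them past the test. These were IREB2 in IEC4 against IEC2 (-0.028 with median-of-ratios scaling), FTL in IEC12 against IEC2 (0.03 without IEC2 replicate B, 0.06 without IEC12 replicate B, 0.18 without IEC12 replicate C, in a range of -0.31 to 0.18 with a library left out), ACO1 in AOC against IEC12 (0.045 with median-of-ratios scaling and 0.045 without IEC12 replicate C, in a range of -0.34 to 0.045) and NCOA4 in AOC against IEC12 (-0.001 without AOC replicate B, -0.063 without IEC12 replicate A, in a range of -0.063 to 0.22). FTL in IEC12 against IEC2 had no value with only the groups compared, since it did not pass the filter. Among calls over all genes between IEC2 and IEC4, 66.5% were higher in IEC4, or 47.9% with median-of-ratios scaling. In IEC12 against IEC4 this share was 39.2%, or 53.0% with that scaling and 25.6% with equal totals. It was 55.7% in IEC12 against IEC2 (36.6% with equal totals) and 38.2% in AOC against IEC12 (51.1% with median-of-ratios scaling).

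When replicate letters entered as a block, the 6 genes gave 1, 3, 4 and 3 calls in the 4 comparisons, against 1, 4, 4 and 3, and NCOA4 in IEC12 against IEC4 had an adjusted p of 0.0552. Deviations of same-lettered libraries correlated at -0.514 to 0.246 across genes, and in no comparison were all 3 above 0.1, so the letters were not taken as pairs.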
